A study of Mus musculus with 24 samples.

Results

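The cortex of wild-type mice that had lost their olfactory bulbs to surgery (olfactory bulbectomy) was compared by RNA-seq with that of sham-operated wild-type mice. The deposited data are reads per gene from polyA RNA. The 8 libraries described here are those whose labels give the tissue as cortex, 3 after bulbectomy (numbered 1, 2 and 4) and 5 after sham surgery (numbered 1 to 5), of 24 libraries in the series. Cortex bulbectomy 3 was not analysed here. The age of the animals, the time from surgery to dissection and the part of the cortex taken are unknown here. The labels do not say that each library came from a separate animal, so p-values measure the spread between these libraries.

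The olfactory bulb sends its output directly to the piriform cortex and other parts of the basal forebrain, and it receives fibres back from the cortex. Its removal therefore cuts axons, takes away a sensory input and is used in rodents as a model of depression-like and memory-related behaviour. Injured neurons are known to switch on a set of genes for repair and stress, and many neurons that use neuropeptides, small signalling proteins cut from larger precursors, change peptide expression with activity or injury.

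Cortical identity matched the labels in every library. In CPM (reads of a gene relative to all assigned reads, scaled for library composition), the upper layer marker Cux2 lay at 80.2 to 118.9 and the deep layer marker Tbr1 at 69.1 to 118.5. Omp, the marker of olfactory sensory neurons, stayed at or below 0.309 CPM. Xist, transcribed from the inactive X chromosome of females, gave 0 reads in all 8 libraries, and the Y-linked gene Ddx3y lay at 6.84 to 14.6 CPM. These values are those of male tissue in every library, and the sex is otherwise unknown here. Assigned reads numbered 10073878 to 17052728 per library, and 3 reads, the limit taken for detection, corresponded to 0.176 to 0.298 CPM. Mitochondrial genes took 4.39% to 13.06% of assigned reads. In bulk tissue, more cells of a type and more RNA per cell cannot be told apart. The bulbectomy libraries did not form a tight group: on the first principal component of the 500 most variable genes, holding 39.9% of the variance, libraries 2 and 4 lay at 26.4 and 26.9, and library 1 at -16.7 among shams at -18.8 to 13.2. Library 1 is therefore given beside libraries 2 and 4 for the genes and lists that the results turn on.

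Across 14847 genes tested, 3 rose after bulbectomy and 0 fell (edgeR's quasi-likelihood test, Benjamini-Hochberg adjusted p under 0.05). These calls made up 0.0202% of the genes tested. At an unadjusted p under 0.05 there were 877 genes, 610 higher and 267 lower, or 5.91% of all. The called genes were Ecel1, a membrane metalloprotease of neurons known to be induced in damaged neurons, Tmem40, a transmembrane protein, and Ly6g6e, a member of the Ly6 family of membrane-anchored proteins encoded in the major histocompatibility complex. Ecel1 (ENSMUSG00000026247) lies at chr1:87147655-87156521 on GRCm38, Tmem40 (ENSMUSG00000059900) at chr6:115729131-115762410 and Ly6g6e (ENSMUSG00000013766) at chr17:35076902-35078804.

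RefSeq promoter entries (GRCm38.p6) were found for 2 of the 3 called genes, Ecel1 and Tmem40. The sequences below show what lies upstream of the genes with the clearest response and cover the part of the 250 bases before the RefSeq start that is outside annotated exons. For Ecel1 this is chr1:87156522-87156606 and for Tmem40 chr6:115762467-115762716, both on the minus strand and written 5′ to 3′.
Ecel1: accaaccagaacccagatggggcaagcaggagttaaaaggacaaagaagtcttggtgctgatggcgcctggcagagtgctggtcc
Tmem40: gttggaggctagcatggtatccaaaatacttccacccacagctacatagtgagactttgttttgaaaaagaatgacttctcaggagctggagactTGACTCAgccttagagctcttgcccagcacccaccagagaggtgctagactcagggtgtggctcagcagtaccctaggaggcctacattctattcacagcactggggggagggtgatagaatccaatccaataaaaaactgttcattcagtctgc
Capitals mark a match to TGANTCA, the motif bound by AP-1 factors such as Jun and Fos. Both strands were searched for TGANTCA, for the cAMP response element TGACGTCA and for the TATA box TATAAA. Over the full 250 upstream bases, 6.75% of 32851 RefSeq promoters hold TGANTCA, 1.55% TGACGTCA and 12.4% TATAAA. Tmem40 holds the first of these and neither of the others, and Ecel1 holds none of the 3 in its 250 bases. The match is a description of the sequence and was not tested for binding.

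Ecel1 measured 34.4 CPM in bulbectomy 1, 92.9 in bulbectomy 2 and 62.6 in bulbectomy 4. In shams 1 to 5 it measured 7.34, 5.20, 10.4, 8.97 and 6.62 CPM. All 3 bulbectomy libraries lay above every sham, with library 1 the lowest of the 3. The means were 63.3 ± 29.3 CPM (SD, n = 3) and 7.71 ± 2.03 CPM (n = 5). On the log2 scale the difference was 3.03 ± 0.30 (SE), with an edgeR adjusted p of 0.00374.

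Tmem40 measured 6.31, 23.5 and 17.1 CPM in bulbectomy 1, 2 and 4. Its sham values were 2.27, 1.59, 2.19, 2.23 and 1.55 CPM. The order of the bulbectomy libraries was that of Ecel1, and the lowest of them was again above all shams. The log2 fold change was 2.99 ± 0.37 (SE; edgeR adjusted p = 0.0123).

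Ly6g6e measured 3.66, 9.50 and 6.15 CPM after bulbectomy, from 55, 100 and 63 reads. In shams 1 to 5 it measured 0.517, 0.381, 0.548, 1.11 and 0.495 CPM, from 5, 6, 9, 16 and 8 reads. The gene was thus near the detection limit in sham cortex and clearly above it after bulbectomy, with library 1 once more the lowest of the 3. The log2 fold change was 3.37 ± 0.41 (SE; edgeR adjusted p = 0.0123). Exons of other genes cover 18% of its exon bases on the opposite strand and the strand setting of the counting is not given, so some of its reads may belong to another gene. Without bulbectomy 2, or without sham 1, 2 or 5, Tmem40 and Ly6g6e were no longer called (adjusted p up to 0.0963 for each), and the call of Ecel1 alone was left.

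The 7 other genes of smallest p among those higher after bulbectomy missed the threshold. Cartpt, precursor of the neuropeptide CART, measured 46.1, 50.6 and 126.8 CPM in bulbectomy 1, 2 and 4 and 12.7 to 20.6 CPM in the shams (2.03 ± 0.30 on the log2 scale; adjusted p = 0.0603 by edgeR). Crhbp, which binds and buffers corticotropin-releasing hormone, measured 51.1, 72.6 and 47.4 CPM against 13.3 to 29.2 CPM (1.40 ± 0.25; adjusted p = 0.176). Hrh3, the histamine autoreceptor of nerve terminals, measured 88.5, 133.1 and 129.4 CPM against 59.3 to 69.5 CPM (0.88 ± 0.17; adjusted p = 0.276). In these 3 genes no bulbectomy library overlapped the shams.

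Slc5a5, the sodium-iodide symporter, measured 17.6, 18.7 and 15.9 CPM in bulbectomy 1, 2 and 4 and 7.34 to 9.14 CPM in the shams (log2 fold change 1.10 ± 0.19; edgeR adjusted p = 0.146). Sfrp5, a secreted Wnt antagonist, measured 2.46, 3.90 and 5.17 CPM against 0.609 to 1.39 CPM (1.89 ± 0.36; adjusted p = 0.276). Crct1, a gene of the epidermal differentiation complex, gave 26, 14 and 44 reads in bulbectomy 1, 2 and 4 and 3, 1, 0, 1 and 0 reads in the shams (adjusted p = 0.0603). Its sham level was at or under the detection limit, so no fold is given. Ttr, the thyroid hormone carrier made in bulk by the choroid plexus, completes the group and is described with that tissue below. The 7 genes passed the threshold in some of the alternative settings: Cartpt and Ttr each in 9 of 19, Crhbp in 7 of 19, Crct1 in 7 of 18, Sfrp5 and Hrh3 each in 5 of 19 and Slc5a5 in 4 of 19.

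Among genes lower after bulbectomy, the 10 of smallest p also missed the threshold, and 1 of them is a predicted gene that is not named. Chil3 and Ltf are myeloid genes. Chil3, a chitinase-like protein, gave 4, 1 and 1 reads in bulbectomy 1, 2 and 4 and 6, 28, 18, 23 and 17 reads in the shams (edgeR adjusted p = 0.333). Ltf, lactoferrin of neutrophil granules, gave 6, 2 and 1 reads and 10, 32, 19, 23 and 22 reads (adjusted p = 0.333). Part of the bulbectomy libraries were at or under the detection limit for both genes, so no fold is given. The list of blood cell genes had no common direction, with 5 higher and 7 lower of 12 tested (median log2 fold change -0.11). In that list Ngp, another neutrophil granule protein, measured 0.598, 0.855 and 0.488 CPM against 0.930 to 3.96 CPM (-2.02 ± 0.49; edgeR adjusted p = 0.384), and Cd79a, of the B cell receptor, measured 4.52, 1.90 and 8.10 CPM against 1.83 to 4.94 CPM (0.61 ± 0.43; adjusted p = 0.878).

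Vcp-rs, a processed copy of the ATPase gene Vcp, measured 0.731, 0.285 and 0.976 CPM in bulbectomy 1, 2 and 4. In shams 1 to 5 it measured 53.7, 22.3, 44.5, 1.81 and 23.2 CPM. Sham 4 was thus close to the bulbectomy libraries and far from the other shams (log2 fold change -5.42 ± 1.06; edgeR adjusted p = 0.362). Its reads may be shared with Vcp, since the treatment of multiply matching reads is not known. H2-K2, annotated as a transcribed pseudogene of the class I histocompatibility family and with close relatives, measured 10.5, 2.57 and 9.85 CPM against 16.0 to 30.7 CPM (-1.67 ± 0.39; adjusted p = 0.384).

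U2surp, a component of the spliceosome, measured 22.2, 17.1 and 17.9 CPM against 29.6 to 40.1 CPM (log2 difference -0.78 ± 0.18; adjusted p = 0.384 by edgeR). Ccl12, a monocyte chemokine, lay at 0.095 to 0.976 CPM and 1.49 to 2.92 CPM. Trim54, a muscle ring-finger protein, lay at 0.190 to 0.199 CPM and 0.495 to 1.84 CPM. Pcdhac1, a clustered protocadherin, lay at 0.095 to 0.731 CPM and 1.16 to 2.69 CPM. Pcdhac1 shares 52.8% of its exon bases with same-strand genes and Trim54 26.6% with opposite-strand genes. The bulbectomy libraries of all 20 genes, 10 in each direction, lay outside the sham range, library 1 included. Over all genes tested, groups did not overlap for 3.64%, with 2.2% higher and 1.44% lower; the 20 were picked by p, so nothing is read from their count.

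**Figure D1:**
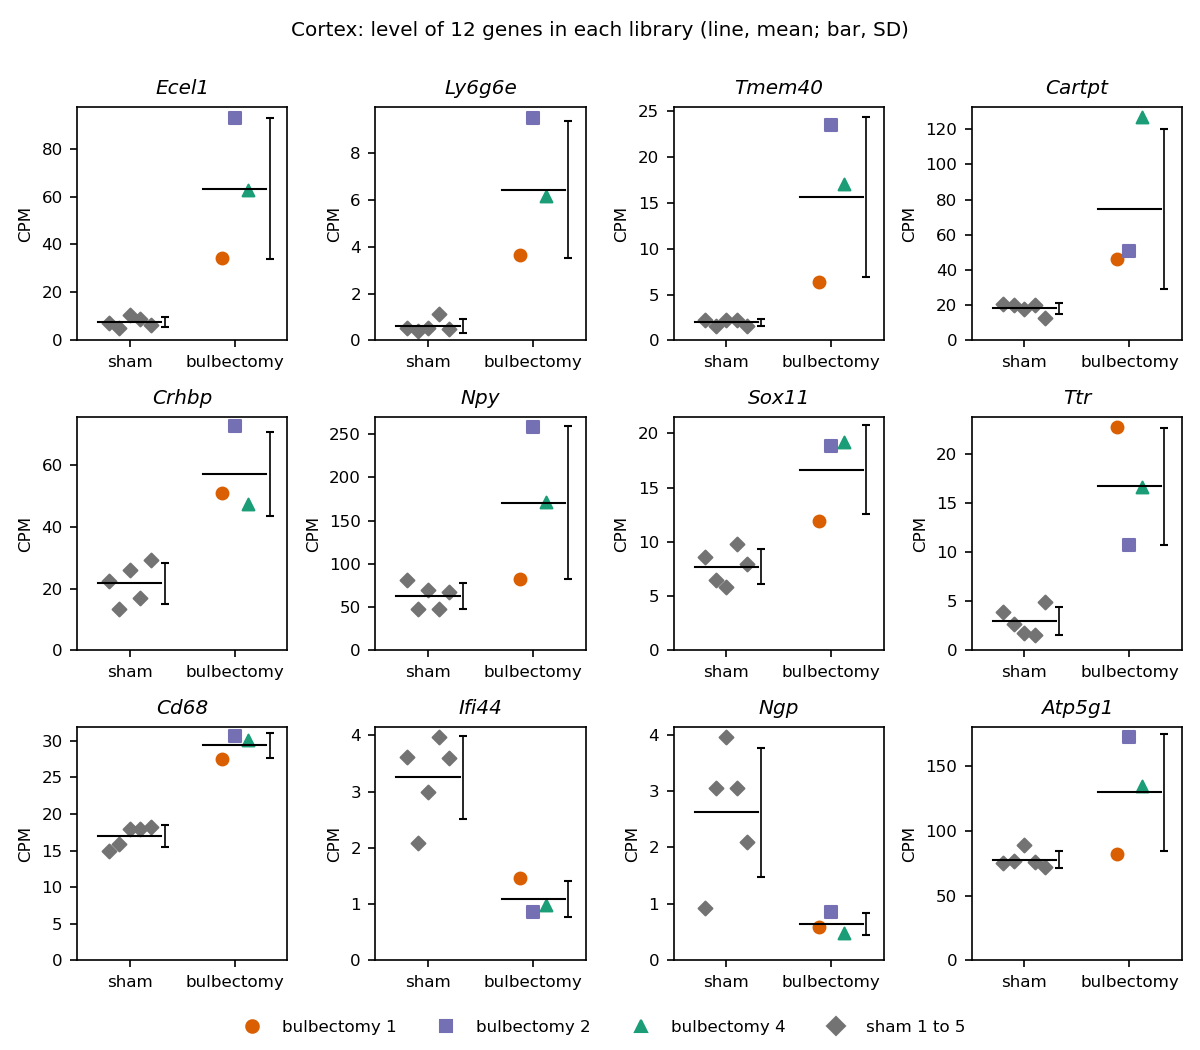
CPM (vertical axis, from 0) of 12 genes in the 5 sham libraries (grey diamonds) and in bulbectomy 1 (circle), 2 (square) and 4 (triangle), with the group mean as a line and the SD as a bar. Ecel1 lies at 34.4 to 92.9 CPM after bulbectomy and at most 10.4 after sham, while bulbectomy 1 lies inside the sham range for Atp5g1, at 82.5 CPM.

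Neuropeptides and their precursors were the first gene group examined. All gene lists were drawn up with earlier results of these data known. Their shares beside those of all genes are therefore descriptions and not tests. Of 25 listed genes 22 passed the filter on low counts; 16 were higher and 6 lower after bulbectomy, and none was called. Their median log2 fold change was 0.39, against 0.0053 over all genes tested, of which 50.8% were higher. An unadjusted p under 0.05 was reached by 11 of the 22, all of them higher, against 4.11% of all genes that were higher at that level. The counts at that level in every list below are to be read beside the same shares of all genes, 4.11% higher and 1.8% lower. The list's mean log2(CPM + 0.5) was 5.17, 5.44 and 5.28 in bulbectomy 1, 2 and 4 and 4.73 to 4.94 in the shams, so that each bulbectomy library lay above every sham.

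Npy, an inhibitory peptide of cortical interneurons, measured 82.2, 258.8 and 171.9 CPM in bulbectomy 1, 2 and 4. Its sham values were 81.0, 48.1, 69.8, 47.4 and 67.8 CPM. Library 1 was close to the highest sham, and libraries 2 and 4 were far above it (log2 fold change 1.44 ± 0.30; edgeR adjusted p = 0.333). Sst, somatostatin of dendrite-targeting interneurons, measured 199.3, 326.4 and 365.9 CPM against 132.8 to 194.8 CPM (0.84 ± 0.20; adjusted p = 0.384). Penk, the enkephalin precursor, measured 95.05, 205.2 and 154.5 CPM against 61.5 to 99.5 CPM (0.89 ± 0.24; adjusted p = 0.501). Tac1, the substance P precursor, measured 9.64, 10.6 and 6.73 CPM against 3.11 to 7.43 CPM (0.96 ± 0.31; adjusted p = 0.687). Without bulbectomy 1, 8 of the 22 were called and all 8 rose, where the calls made up 3.79% of all genes tested in that fit.

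Penk and Tac1 are also abundant in striatal medium spiny neurons, which lie under the cortex. Of 19 listed striatal genes 16 were tested, 13 were higher and 3 lower, and none was called (median log2 fold change 0.55). An unadjusted p under 0.05 was reached by 5, all higher, against 4.11% of all genes. The list's mean log2(CPM + 0.5) was 4.04, 4.12 and 3.53 in bulbectomy 1, 2 and 4, 3.17 to 3.27 in shams 1 to 4 and 4.07 in sham 5. Drd1, the dopamine receptor of the direct pathway, lay at 5.76 to 11.5 CPM after bulbectomy and 2.79 to 10.5 CPM after sham. The striatal level of sham 5 lay between those of bulbectomy 1 and 2, and the same library measured 6.62 CPM for Ecel1, 1.55 for Tmem40, 12.7 for Cartpt and 67.8 for Npy, inside the range of the other shams for Ecel1 and Npy and below it for Tmem40 and Cartpt. For Penk, at 99.5 CPM, sham 5 was the highest sham. These sham 5 values come from a single library. The part of striatal tissue in the values of Penk, Tac1, Ecel1, Tmem40, Cartpt and Npy was not tested.

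Genes of the response of neurons to axon injury contained 2 of the 3 called genes. Of 24 listed genes 18 were tested, with 13 higher and 5 lower, 5 at an unadjusted p under 0.05 and a median log2 fold change of 0.26. The list was drawn up with earlier results of these data known, and so its calls of Ecel1 and Tmem40 are no independent evidence. Besides these and Npy, the smallest p belonged to Sox11, a transcription factor of growing and regenerating neurons. Sox11 measured 11.9, 18.8 and 19.2 CPM against 5.85 to 9.81 CPM (log2 difference 1.11 ± 0.25; adjusted p = 0.376 by edgeR). Hspb1, a small heat shock protein, measured 9.11, 16.4 and 16.1 CPM against 4.96 to 8.89 CPM (0.93 ± 0.27; adjusted p = 0.634). Jun, a transcription factor at the centre of the injury response, had a log2 fold change of 0.28 (edgeR unadjusted p = 0.17), and Socs3, an inhibitor of cytokine signalling, one of -0.48 (unadjusted p = 0.26). The list's mean log2(CPM + 0.5) was 4.32, 4.72 and 4.66 in bulbectomy 1, 2 and 4 and 3.88 to 4.20 in the shams. Ecel1 and Tmem40 are part of this mean, so it is not separate from their calls. By gene, library 1 was above the sham range for 6 of the 18, library 2 for 9 and library 4 for 10. Library 1 was inside it for 10 and below it for 2. Over all genes tested, the shares above the sham range were 18.6%, 25.8% and 29.9% in libraries 1, 2 and 4. Library 1 was inside the range for 65.5% of all genes and below it for 15.9%. Without bulbectomy 1, 5 of the 18 were called and rose, where 2.01% of all genes tested did.

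Genes of the interferon response were on the lower side. All 27 listed genes were tested; 25 were lower and 2 higher, 16 reached an unadjusted p under 0.05, all lower, against 1.8% of all genes, and none was called. The median log2 fold change was -0.73. This list too was drawn up with earlier results of these data known, so its shares are a description. The list's mean log2(CPM + 0.5) was 3.71, 3.003 and 3.59 in bulbectomy 1, 2 and 4 and 3.90 to 4.35 in the shams, with no overlap of these means. By gene, library 2 was below the sham range for 23 of the 27, library 1 for 10 and library 4 for 11. Over all genes tested, library 2 was below the sham range for 23.6%, library 1 for 15.9% and library 4 for 32.8%. Library 4 was above the sham range for 3 of the 27, against 29.9% of all genes. The list's median was -0.87 without bulbectomy 1, -0.50 without bulbectomy 2 and -0.79 without bulbectomy 4. Ifi44, an interferon-induced cytoplasmic protein, measured 1.46, 0.855 and 0.976 CPM against 2.09 to 3.96 CPM (-1.53 ± 0.36; edgeR adjusted p = 0.384). Ifit2, which restricts translation of viral RNA, measured 6.38, 2.38 and 1.17 CPM against 6.88 to 10.8 CPM (-1.31 ± 0.43; adjusted p = 0.698). Ifih1, a sensor of double-stranded RNA, measured 5.52, 1.81 and 1.17 CPM against 5.96 to 8.04 CPM (-1.18 ± 0.42; adjusted p = 0.726). Mx1, an antiviral GTPase, lay at 0.190 to 0.293 CPM and 0.556 to 1.71 CPM. Library 1 was the closest to the shams for Ifi44, Ifit2 and Ifih1. Without bulbectomy 1, 7 of the 27 were called and fell, where 1.78% of all genes tested did.

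The related genes of class I antigen presentation gave no common direction that held across libraries. Of 13 tested, 3 were higher and 10 lower (median log2 fold change -0.25), and the list's mean log2(CPM + 0.5) was 6.35, 5.68 and 6.74 in bulbectomy 1, 2 and 4, inside or just under the sham range of 5.77 to 6.86. The list's median was -0.012 without bulbectomy 2 and -0.61 without bulbectomy 4. H2-D1, a classical class I heavy chain, was on the higher side at 1252, 1050.02 and 1558 CPM against 365.2 to 1052.5 CPM (0.83 ± 0.28; edgeR adjusted p = 0.699). H2-K1, another, measured 349.1, 184.3 and 387.4 CPM against 227.8 to 565.5 CPM (-0.50 ± 0.30; adjusted p = 0.860).

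Microglial genes were described by 2 lists. Of 16 listed genes of disease-associated microglia, a state described around plaques and injury, 14 were tested; 11 were higher and 3 lower, 4 reached an unadjusted p under 0.05 and none was called (median log2 fold change 0.44). Without bulbectomy 4 the median was 0.15. Cd68, a lysosomal protein of phagocytes, had the smallest p, at 27.5, 30.6 and 30.1 CPM in bulbectomy 1, 2 and 4 and 14.9, 15.9, 17.9, 17.9 and 18.3 CPM in the shams. Library 1 did not differ from libraries 2 and 4 there beyond a few CPM, and no bulbectomy library overlapped a sham (0.79 ± 0.17; edgeR adjusted p = 0.333). Tyrobp, a signalling adaptor of microglia, measured 22.9, 39.8 and 52.9 CPM against 18.2 to 28.1 CPM, with library 1 among the shams. Homeostatic microglial genes gave 9 higher and 7 lower of 16 tested, with a median of 0.074. In that list Siglech measured 17.7, 18.8 and 21.2 CPM against 8.88 to 15.2 CPM (0.70 ± 0.21; adjusted p = 0.687). Genes of reactive astrocytes gave 7 higher and 8 lower of 15 tested, at list levels of 3.62, 3.27 and 3.66 on the log2(CPM + 0.5) scale against 3.09 to 4.0. The acute phase gene Serpina3n of that list measured 38.1, 63.4 and 51.9 CPM against 14.7 to 40.0 CPM (0.83 ± 0.29, edgeR adjusted p = 0.711). Hspb1, described above, is also a member and was higher. On the lower side, Cxcl10 measured 6.31, 1.24 and 3.71 CPM against 6.06 to 12.3 CPM (-1.21 ± 0.42, edgeR adjusted p = 0.711). Lcn2 measured 3.59, 2.95 and 16.4 CPM against 4.63 to 30.1 CPM (-1.18 ± 0.76).

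Ttr was read beside the other genes of the choroid plexus and the ventricle lining. It measured 22.7, 10.7 and 16.6 CPM in bulbectomy 1, 2 and 4 and 3.93, 2.73, 1.77, 1.53 and 4.95 CPM in the shams (log2 fold change 2.49 ± 0.38; edgeR adjusted p = 0.0603). Of 18 listed choroid plexus genes 12 were tested, 7 higher and 5 lower (median 0.039), and the list's mean log2(CPM + 0.5) was 1.75, 1.34 and 1.09 against 0.985 to 1.47, Ttr included. Folr1, the folate receptor of that epithelium, lay at 0.864 to 1.52 CPM after bulbectomy and 0.365 to 1.86 CPM after sham, and Kl, klotho, at 0.781 to 2.73 CPM and 0.888 to 2.23 CPM. Prlr, the prolactin receptor, measured 1.20, 0.855 and 1.56 CPM against 0.254 to 0.620 CPM. The part of choroid plexus in the Ttr values was not tested. Ependymal cell genes, for motile cilia, were higher in all 9 tested of 12 listed (median 0.60), with 3 at an unadjusted p under 0.05 and none called. Tekt1, a tektin of ciliary microtubules, measured 1.93, 2.95 and 3.32 CPM against 1.24 to 1.86 CPM.

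Genes induced by glucocorticoids were higher in 16 of 20 tested, with 6 at an unadjusted p under 0.05, all higher, none called and a median log2 fold change of 0.27. Without bulbectomy 1 the list gave 12 higher and 8 lower, with a median of 0.10. Tsc22d3, a classical glucocorticoid receptor target, measured 45.9, 49.5 and 34.0 CPM against 17.4 to 29.8 CPM (0.93 ± 0.21; edgeR adjusted p = 0.376). Ddit4, an inhibitor of mTOR signalling, measured 44.3, 42.0 and 31.6 CPM against 21.6 to 29.9 CPM (0.68 ± 0.18; adjusted p = 0.522). Plin4, a lipid droplet protein, measured 7.05, 6.65 and 8.98 CPM against 1.34 to 6.12 CPM (1.28 ± 0.41; adjusted p = 0.687), and Mt1, a metallothionein, 209.5, 344.9 and 467.8 CPM against 155.4 to 260.2 CPM (0.70 ± 0.24; adjusted p = 0.707). Library 4 was the lowest of the 3 for Tsc22d3 and Ddit4 and the highest for Plin4 and Mt1, and library 1 was inside the sham range for Mt1. Fkbp5, another target, had a log2 fold change of 0.24 (edgeR unadjusted p = 0.19) and Sgk1 one of 0.35 (unadjusted p = 0.25).

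In the lists of cortical neurons the bulbectomy libraries went apart. Upper layer neuron genes gave 6 higher and 9 lower of 15 tested (median log2 fold change -0.040, and -0.20 without bulbectomy 1). Their mean log2(CPM + 0.5) levels were 5.23, 4.93 and 4.81 in bulbectomy 1, 2 and 4 against 5.03 to 5.27. Cux2 stood at 0.01 and Rorb at -0.0043. Stard8 measured 28.2, 21.4 and 28.0 CPM against 31.9 to 40.7 CPM (-0.41 ± 0.17, edgeR adjusted p = 0.779). Lamp5 measured 172.9, 160.8 and 212.9 CPM against 215.3 to 266.7 CPM (-0.33 ± 0.16, edgeR adjusted p = 0.844). In both, all bulbectomy libraries lay below every sham, library 1 included, where 1.44% of all genes did. Deep layer genes gave 10 higher and 5 lower of 15 tested from 16 listed (median 0.14, and 0.22 without bulbectomy 4), at 4.44, 4.64 and 4.21 against 4.10 to 4.36. Rprm, a marker of corticothalamic neurons, measured 46.9, 87.2 and 83.7 CPM against 32.1 to 44.1 CPM (0.93 ± 0.21; edgeR adjusted p = 0.376). Interneuron genes gave 11 higher and 6 lower of 17 tested from 18 listed (median 0.15, -0.018 without bulbectomy 1 and 0.33 without bulbectomy 4), at 4.86, 4.67 and 4.13 against 4.33 to 4.70. Library 1 was thus above every sham for the interneuron list and library 4 below every sham, while libraries 2 and 4 were below every sham for the upper layer list. The median exon length of the upper layer list was 7301 bases, against 4360 over all genes tested. With a trend over exon length removed from each library, as described below, the median log2 fold change of that list was 0.066. The part of transcript length in its levels was not tested. In the interneuron list Pvalb stood at 0.10 and Vip at 0.17. Sst, described above, and Slc32a1, the vesicular GABA transporter, were on the higher side (0.51 ± 0.18 for Slc32a1, edgeR adjusted p = 0.736). Immediate early genes, which follow recent neuronal activity, gave 9 higher and 11 lower of 20 tested (median -0.032, and -0.27 without bulbectomy 1), with Fos at -0.36 and Arc at 0.16. None of the genes of these lists was called.

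**Figure D2:**
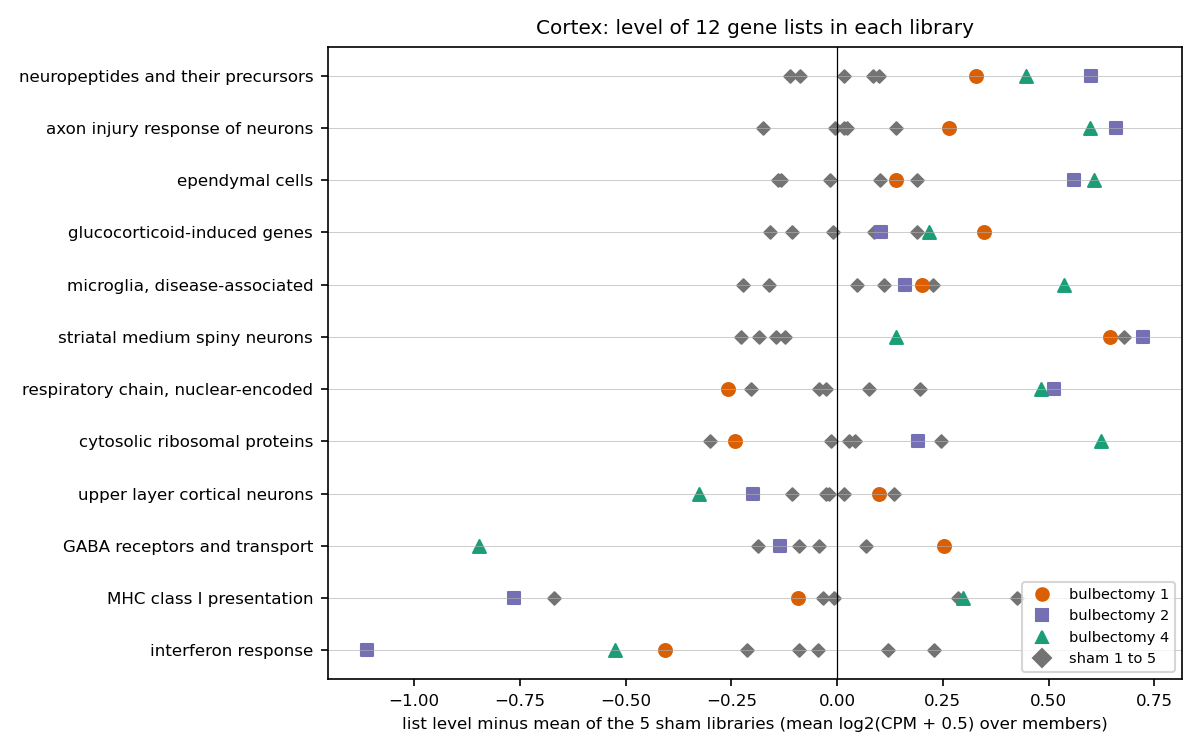
Mean log2(CPM + 0.5) of 12 gene lists in each library, minus the mean of the 5 shams (horizontal axis), with shams as grey diamonds and bulbectomy 1, 2 and 4 as circle, square and triangle. Neuropeptide, axon injury and interferon lists have all 3 bulbectomy libraries outside the sham range, and the axon injury list includes the called genes Ecel1 and Tmem40. For the nuclear-encoded respiratory chain, bulbectomy 1 lies on the other side of zero from libraries 2 and 4.

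Over all 14847 genes, bulbectomy 1 lay above the sham range for 18.6% and below it for 15.9%. Bulbectomy 2 lay above it for 25.8% and below it for 23.6%, and bulbectomy 4 for 29.9% and 32.8%. Each bulbectomy library was left out in turn and the test repeated. Without bulbectomy 1, 573 of 15103 genes were called (3.79%), 304 higher (2.01%) and 269 lower (1.78%). Without bulbectomy 2 a single gene, Ecel1, was called (0.00658%), and without bulbectomy 4 there were 10 (0.0659%), 9 higher (0.0593%) and 1 lower (0.00659%). The 3 called genes of the full comparison were among the 573 and among the 10.

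Library 1 did not share the shift of the 573 genes as a group. Of the 304 that rose in libraries 2 and 4, library 1 was above the sham range in 69, inside it in 166 and below it in 69. The median of these genes relative to the sham mean, on the log2(CPM + 0.5) scale, was -0.036 in library 1, 0.94 in library 2 and 0.89 in library 4. Of the 269 that fell, library 1 was above the sham range in 77, inside it in 163 and below it in 29, and the medians were 0.19, -1.24 and -1.34. The values of libraries 2 and 4 chose these genes and are given as a description; those of library 1 were not used in the choice.

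**Figure D3:**
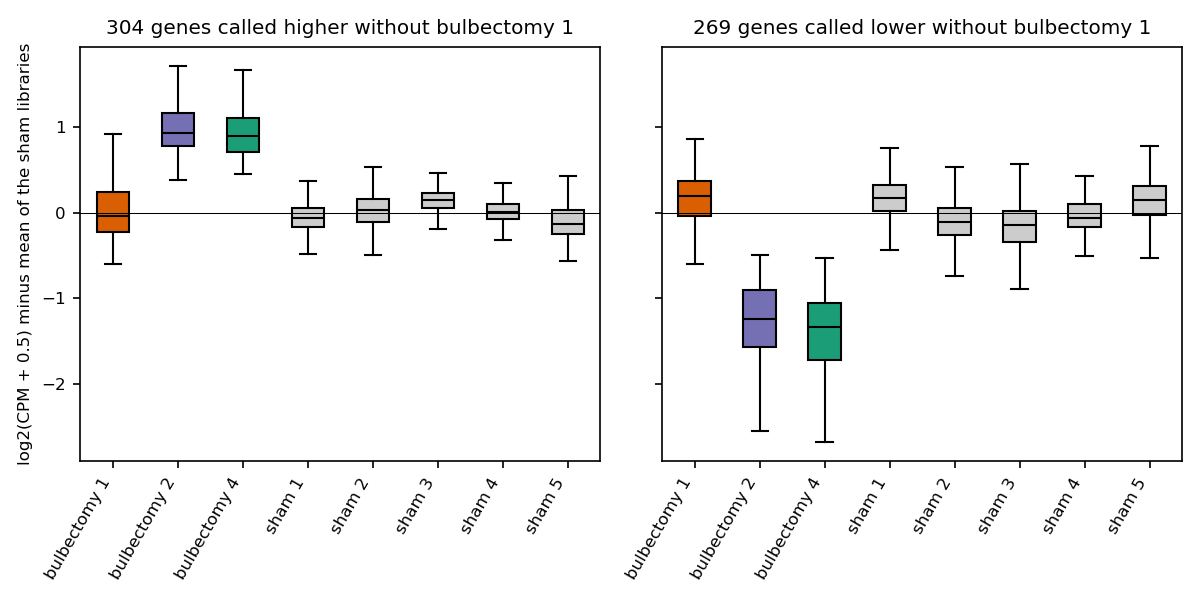
Distribution over genes of log2(CPM + 0.5) minus the sham mean (vertical axis) in each of the 8 libraries, for the 304 genes called higher and the 269 called lower when bulbectomy 1 is left out; boxes span the quartiles, the line is the median and whiskers reach the most distant gene within 1.5 box lengths. Bulbectomy 1 has medians of -0.036, among the shams, and 0.19, above the highest sham at 0.17, against 0.94 and -1.24 in bulbectomy 2.

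The 3 genes of smallest p in that comparison were again Ecel1, Tmem40 and Ly6g6e, for which library 1 lay above every sham. The genes that follow were chosen after their values were seen, as examples in which library 1 did not go with libraries 2 and 4. Dpysl2, the axon guidance protein CRMP2, measured 100.9 CPM in bulbectomy 1, 354.7 in bulbectomy 2 and 236.7 in bulbectomy 4, against 79.1 to 114.0 CPM in the shams. Rasl10a, a small Ras-like GTPase, measured 21.3, 62.4 and 57.7 CPM against 19.6 to 27.5 CPM. Ndufa3, a subunit of respiratory complex I, measured 87.2, 239.8 and 211.3 CPM against 92.1 to 116.4 CPM. In all 3, library 1 was inside or below the sham range and libraries 2 and 4 were above every sham.

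Among the lower genes, Notch1, the receptor of a cell-contact signalling pathway, measured 14.6, 2.47 and 2.15 CPM in bulbectomy 1, 2 and 4 against 10.2 to 16.7 CPM. Klf12, a transcriptional repressor, measured 9.97, 1.33 and 0.976 CPM against 5.97 to 8.89 CPM. Adcy9, an adenylyl cyclase, measured 38.9, 9.41 and 11.7 CPM against 27.2 to 33.6 CPM. Atp2b3, a calcium pump of the plasma membrane, measured 64.3, 25.9 and 25.4 CPM against 58.2 to 73.8 CPM. Here library 1 lay inside the sham range or above it. Without library 1, Notch1 had a log2 fold change of -2.45 ± 0.31 (edgeR adjusted p = 0.00491), and with it -0.96 ± 0.52 (adjusted p = 0.848).

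Transcript length moved with this split. The median exon length was 2000.5 bases for the 304 genes and 7458 bases for the 269, against 4360 bases over all genes tested. When genes were divided into 4 equal groups by exon length, the median log2(CPM + 0.5) relative to the sham mean went down from the shortest group to the longest in libraries 2 and 4. The difference, shortest minus longest, was 0.37 in bulbectomy 2 and 0.71 in bulbectomy 4, and -0.34 in bulbectomy 1. In shams 1 to 5 it was -0.13, 0.14, 0.18, 0.077 and -0.27. Bulbectomy 2 and 4 were thus above all shams and bulbectomy 1 below all of them. The 10 most abundant genes took 23.6% and 24.9% of assigned reads in libraries 2 and 4, 16.5% in library 1 and 14.1% to 21.4% in the shams, and reads outside genes were 5.13% in library 4 against 2.84% to 3.37% in the other 7. The integrity of the RNA is given only as a number of at least 8, so its part in these values was not tested.

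With a trend over exon length removed from each library, an alternative chosen after seeing the data, 7 genes were called in all 8 libraries, 6 higher and 1 lower, including the 3 named above. Without bulbectomy 1 as well, 411 were called, 253 higher and 158 lower. The medians of the neuropeptide, axon injury and interferon lists were 0.29, 0.19 and -0.65 with the trend removed.

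**Figure D4:**
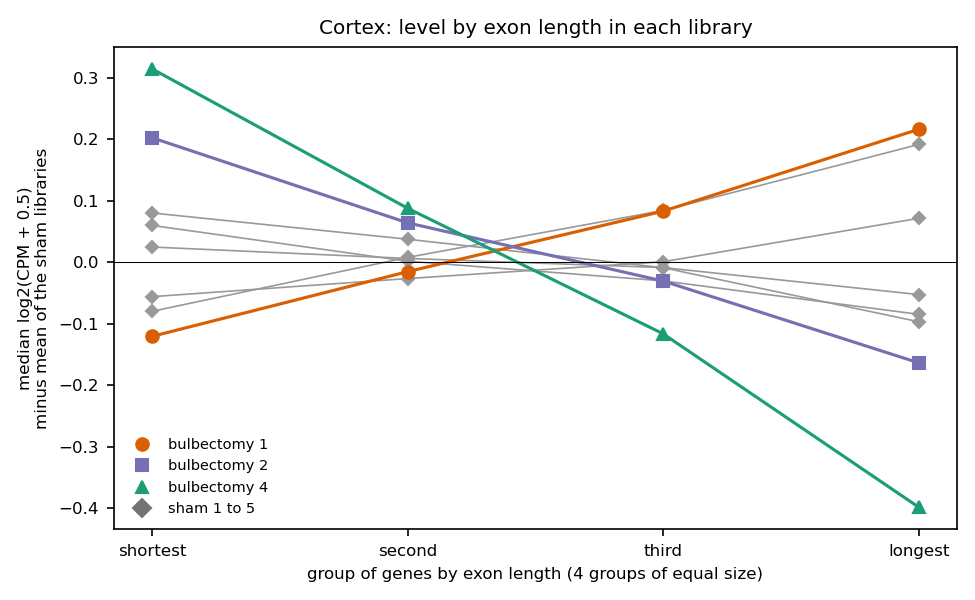
Median log2(CPM + 0.5) relative to the sham mean (vertical axis) by exon length group (horizontal axis, shortest to longest) in each library. Bulbectomy 2 and 4 slope down from 0.20 and 0.31 to -0.16 and -0.40, bulbectomy 1 slopes up from -0.12 to 0.22, and at both ends the grey sham lines lie between.

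Levels of lists of short and of long transcripts are given here by library. The nuclear-encoded respiratory chain, with a median exon length of 2101 bases, gave 30 higher and 3 lower of 33 tested from 34 listed, 5 at an unadjusted p under 0.05 and none called (median log2 fold change 0.30). Its mean log2(CPM + 0.5) was 6.97 in bulbectomy 1, 7.74 in bulbectomy 2 and 7.71 in bulbectomy 4, against 7.03 to 7.42 in the shams. Library 1 was below the sham range for 18 of the 33 genes, while library 2 was above it for 29 and library 4 for 25. Over all genes tested, library 1 was below it for 15.9%, library 2 above it for 25.8% and library 4 for 29.9%. Cox8a, a subunit of cytochrome c oxidase, measured 308.0, 676.6 and 611.6 CPM against 296.4 to 377.9 CPM. Atp5g1, a subunit of the ATP synthase ring, measured 82.5, 172.6 and 134.4 CPM against 72.5 to 89.3 CPM. The list's median was 0.53 without bulbectomy 1, 0.21 without bulbectomy 2 and 0.10 without bulbectomy 4. Without bulbectomy 1, 6 of the 33 were called, all higher, where 2.01% of all genes tested were. The mitochondrial-encoded respiratory chain had the lowest median exon length of the lists, 1144 bases, and did not follow the order of the libraries by length, at 13.24, 13.93 and 13.13 in bulbectomy 1, 2 and 4 against 11.83 to 13.54.

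Cytosolic ribosomal proteins, with a median exon length of 1752 bases, gave 25 higher and 3 lower of 28 tested (median log2 fold change 0.22), at mean levels of 8.09, 8.53 and 8.96 in bulbectomy 1, 2 and 4 against 8.04 to 8.58. Receptors and transporters of GABA, with a median exon length of 6686 bases, gave 6 higher and 11 lower of 17 (median -0.18), at 6.13, 5.74 and 5.03 against 5.69 to 6.13. The members differed. Gabrb1, of smallest p in the list and with 13838 exon bases, measured 67.7, 68.1 and 69.9 CPM against 48.7 to 67.2 CPM, above every sham in each bulbectomy library. Gabrd measured 74.2, 81.8 and 127.0 CPM against 97.8 to 123.8 CPM, and Gabbr2 261.5, 206.1 and 117.8 CPM against 178.7 to 314.7 CPM. Gabrb2, a receptor subunit, measured 24.99, 3.80 and 1.27 CPM against 11.6 to 24.3 CPM. Its log2 fold change was -0.73 ± 0.71 with all libraries (edgeR adjusted p = 0.890) and -2.73 without bulbectomy 1 (adjusted p = 0.00910). The medians of the ribosomal and GABA lists were 0.45 and -0.32 without bulbectomy 1, and both changed sign without bulbectomy 4, to -0.054 and 0.11.

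The effect of bulbectomy in cortex was set against that in the other tissues in 1 fit of all 24 libraries. Hippocampus shams 1 and 2 stood apart there: striatal neuron genes had a mean log2(CPM + 0.5) of 6.69 and 6.91 in them and 2.90 to 3.59 in the other hippocampus libraries, and sham 2 had hippocampal neuron genes at 3.88, against 5.43 to 5.87 in the others and 3.67 to 4.11 in cortex. No gene was called for a difference between the effects in cortex and hippocampus (0 of 16564 by edgeR, 466 or 2.81% at an unadjusted p under 0.05), also without those 2 shams (0, with 338 at that level). None was called between cortex and cerebellum (0 of 16564, with 276 or 1.67% at that level). The fit took the 24 libraries as independent, although same-numbered shams had close levels of Vcp-rs in the 3 tissues; an animal shared between tissues was not modelled. Ecel1 had a log2 fold change of -0.17 ± 0.39 in hippocampus and 0.19 ± 0.55 in cerebellum; its cortex effect exceeded that in hippocampus by 3.23 ± 0.57 (adjusted p = 0.159), or by 2.60 ± 0.53 without the 2 shams (adjusted p = 0.698). Tmem40 had 0.59 ± 0.52 in hippocampus (adjusted p = 0.589). Ly6g6e rose in hippocampus too in this joint fit, by 2.14 ± 0.50 (adjusted p = 0.0428), and without the 2 shams it had 1.76 ± 0.51 (adjusted p = 0.153).

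The hippocampus libraries, fitted alone, gave 217 called genes (1.55%), 77 higher and 140 lower, and 348 (2.48%) without shams 1 and 2, 118 higher (0.842%) and 230 lower (1.64%). None of the 3 genes called in cortex was among either set. Of the 573 genes called in cortex without bulbectomy 1, 102 were among the 217, which is 17.8% of the one set and 47.0% of the other, and all 102 had the same direction, 28 higher and 74 lower. Without the 2 shams the overlap was 127 genes, 22.2% and 36.5%, again with the same direction in all 127. The hippocampal genes had median exon lengths of 4733.5 bases (higher) and 7308 bases (lower), or 3567 and 8101.5 without the 2 shams. The labels do not say whether the tissues came from the same animals, and the part of transcript length in the overlap was not tested.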

How the data were processed

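RNA-seq of polyA RNA from 8 cortex libraries was analysed, and 16 libraries of hippocampus and cerebellum were used for the test of differences between tissues. The deposited files hold counts, whole reads per Ensembl gene. Trimmomatic, STAR, featureCounts and the mm10 build are listed in the submitters' processing notes for what the authors ran. Tool versions, gene annotation and strand setting: not given in the sources used here. Per the labels' protocols the libraries were directional (NEBNext Ultra II). The 12 rows of assignment totals per file were left out; reads outside genes and ambiguous reads were 2.84% to 5.13% and 4.07% to 4.55% in cortex.

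Genes were filtered with filterByExpr, scaled by TMM and tested with edgeR 4.0.16's robust quasi-likelihood test (R 4.3.3). The test was also run on simulated counts with the same spread for all genes. Those counts had no exon length trend and no bulbectomy library apart from the others. That run therefore does not show how the test behaves on these libraries. P-values were adjusted by Benjamini-Hochberg over all genes tested. Alternatives used DESeq2 1.42.0, limma 3.58.1 (voom with sample weights) and other scalings, filters and samples. GENCODE M21 gave symbols, exon lengths and overlaps for 55227 of 55487 identifiers. List levels are means of log2(CPM + 0.5). The members and lists were chosen with earlier results of these data known. Named genes are those called, the 10 of smallest p in each direction and up to 4 members of smallest p per list; Cux2, Rorb, Jun, Socs3, Fkbp5, Sgk1, Fos, Arc, Pvalb, Vip, Drd1, Folr1 and Kl were named besides as markers or well-known members of their lists. With few reads the CPM carry counting error in addition to the spread shown.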

Additional observations from a re-analysis of the deposited data

Results flagged for a closer look

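Of 39 groups of 5 sham libraries examined for an outlying library, 3 held one by Dixon's criterion, which chance gives in about 1 group in 20. Ly6g6e was at 1.11 CPM in sham 4, above 0.381 to 0.548 CPM in the other shams. Crct1 was at 0.310 CPM in sham 1, from 3 reads, above 0 to 0.0696 CPM in the others. The list of striatal medium spiny neuron genes had a mean log2(CPM + 0.5) of 4.07 in sham 5, above 3.17 to 3.27 in the others.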

How the results depend on the processing

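The count of genes called, 3, was 1 to 573 when a library was left out. It was 39 with DESeq2 (30 higher, 9 lower), 252 with voom and sample weights (160 and 92), 7 with RLE scaling (6 and 1, against 3 and 0 with TMM), 5 in the fit of all 24 libraries, 24 without a filter on low counts, 7 with the exon length trend removed (6 and 1) and 411 with that trend and bulbectomy 1 both removed. It stayed at 3 with upper-quartile scaling, with a mean CPM of at least 1 and with a non-robust fit. The 3 called genes were called in every one of these settings except without bulbectomy 2 or sham 1, 2 or 5, which left Ecel1 alone. With the replicate number as a block 13 were called (8 higher, 5 lower), the 3 among them. Deviations of same-numbered bulbectomy and sham libraries of cortex correlated at 0.18, -0.22 and 0.14 for numbers 1, 2 and 4. Pairs of unlike numbers ran from -0.50 to 0.47, so these values showed no pairing by number between bulbectomy and sham. Of the named genes, the direction of Cd79a alone, a B cell gene at 0.61, reversed in a setting, to -0.34 with voom. The causes of these shifts were not tested. Voom gave bulbectomy 1 and 4 the lowest weights, 0.34 and 0.38, and bulbectomy 2 a weight of 2.11. The common biological coefficient of variation was 0.274. Depth limits the values of Crct1, Chil3, Ltf, Mx1 and Trim54, which lie near 3 reads in part of the libraries.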

Other observations

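Vcp-rs, which was lower after bulbectomy in cortex without passing the test, differed more between the numbered sham libraries than between tissues. With all 24 libraries scaled together, Vcp-rs in cortex, hippocampus and cerebellum measured 53.4, 53.7 and 47.8 CPM in sham 1, 22.8, 25.9 and 26.7 in sham 2, and 45.9, 45.8 and 55.8 in sham 3. It measured 1.82, 1.88 and 1.60 CPM in sham 4 and 22.9, 21.2 and 20.6 in sham 5. The same number thus went with nearly the same level in all 3 tissues. After bulbectomy, cortex 4 measured 1.02 CPM and hippocampus 4 measured 6.78. H2-K2 measured 10.3 CPM in cortex bulbectomy 4 and 36.2 in hippocampus bulbectomy 4, but 10.4 and 9.89 in cortex and hippocampus bulbectomy 1. Whether number 4 after bulbectomy means the same animal in both tissues was not tested.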
